A study of Rattus norvegicus with 12 samples.

Results

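Oxidative phosphorylation subunits are the proteins that build the respiratory chain and the ATP synthase of the inner mitochondrial membrane. A list of 34 rat genes for such subunits was followed through the arrays of this series by taking every gene probe whose accession maps to a listed symbol. The array carried 33 of the 34 genes, on 37 of its 30367 gene probes, and all 37 probes were well above background on all 12 arrays. By complex, the measured genes were 12 of complex I, 4 of complex II, 4 of complex III, cytochrome c, 7 of complex IV and 5 of complex V. Cyc1 was the listed gene not matched.

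The RNA came from L6 dorsal root ganglia, which hold the cell bodies of sensory neurons that serve, among other targets, the urinary bladder. All rats were males of the inbred strain Fischer 344, and the design text gives 4 rats per group. The young_AL rats were 6 months old with food at will, the old_AL rats were 25 to 28 months old with food at will, and the old_CR rats were of the same old age but had been fed on only 3 days a week since 6 weeks of age, a caloric restriction of about 40%. The series set out to ask which age-related changes of the ganglia caloric restriction lessens. There were no young restricted rats, so old_CR differs from young_AL in both age and diet. Whether the 4 RNA samples of a group each came from 1 rat is not stated in the labels beyond the group size, so the p-values below measure the spread between these samples.

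Complex I takes electrons from NADH and complex II takes them from succinate. Both pass them through ubiquinone to complex III, then through cytochrome c to complex IV, which reduces oxygen, and complexes I, III and IV pump protons that drive the ATP synthase, complex V. Sensory neurons depend on this chain to keep up ion gradients along long axons, and its subunits are encoded in both the nuclear and the mitochondrial genome. All the listed genes are nuclear.

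Levels are log2 of the processed spot intensity minus the 75th percentile of that array, so a level of 0 is the array's 75th percentile and a difference of 1 is a doubling. The array of old_AL 1 stood apart. Its 75th percentile of intensity was 7662 against 2634 to 3110 on the other 11 arrays, 4369 of its spots were marked as uneven against 1 to 215 elsewhere, and it correlated with the rest at a median of 0.928, where the other arrays had 0.980 to 0.995. The first fit given is therefore on 11 arrays, with 3 in old_AL, and the fit on 12 arrays stands beside it. One slide and scan held the young_AL arrays and another held both old groups, so the effects of age and of the slide cannot be told apart. Within the slide of the old rats each diet had its own row, and row and diet cannot be told apart either. Of the 10 sensory neuron markers, 9 were measured, and their summed level lay between 41630% and 47110% of the array's 75th percentile on the 11 arrays.

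No member passed the test in any of the 3 comparisons on 11 arrays, with limma and Benjamini-Hochberg adjustment over all 20848 genes tested. With age, old_AL against young_AL, 0 of 33 members passed, where 2.99% of all genes tested did. With diet, old_CR against old_AL, 0 of 33 passed, where 1.06% of all genes did. For old_CR against young_AL, 0 of 33 passed, where 2.32% of all genes did. At an unadjusted p below 0.05 there were 4 members with age, all lower in old_AL, 8 with diet, all higher in old_CR, and 3 for old_CR against young_AL. The shares of all genes at that unadjusted p were 23.0%, 26.3% and 18.3%. On 12 arrays 0 members passed in any comparison, with 0.0144%, 0% and 0.0144% of 20890 genes passing and no member at an unadjusted p below 0.05 (6.84%, 6.18% and 2.78% of all genes).

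By the probe used for each gene, its brightest, the differences were small for every member. With age the median over the 33 members was -0.034 and the range ran from -0.13 for Cycs to 0.078 for Cox6a1. With diet the median was 0.035, from -0.10 for Cox6a1 to 0.19 for Ndufs3. By the same probes the members' 95% intervals reached from -16.9% to 13.9% with age and from -13.6% to 21.7% with diet. For old_CR against young_AL they reached from -13.4% to 14.1%. Shifts beyond these bounds lie outside the interval of every probe used on these 11 arrays. A second probe of Uqcrb, not among those used, differed more with age, by -0.20 ± 0.046. A positive difference was seen for 10 of 33 members with age, 23 with diet and 22 for old_CR against young_AL, where 59.4%, 36.7% and 44.1% of all genes had one. Among the 4170 genes in the brightest deciles 9 and 10 of young_AL level, which hold all 33 members, the shares were 46.6%, 50.2% and 48%.

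These medians changed with old_AL 1 and with the scaling. With that array in the fit at full weight the medians were 0.18 with age and -0.18 with diet, whereas they were -0.041 and 0.038 on 12 arrays with array weights and -0.087 and 0.11 on 12 arrays with quantile normalization. On 11 arrays, centring each array on its median in place of the 75th percentile kept the signs but gave -0.19 and 0.21, with 13 members lower with age and 14 higher with diet past the threshold, where 16.3% and 15.8% of all genes passed. The median of all genes was then -0.13 and 0.12, a move of -0.16 and 0.17 from the first scaling. Quantile normalization of the 11 arrays gave member medians of -0.060 and 0.094, with 2 members past the threshold in each comparison, where 5.12% and 1.89% of all genes passed and the median of all genes was -0.051 and 0.047.

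**Figure D1:**
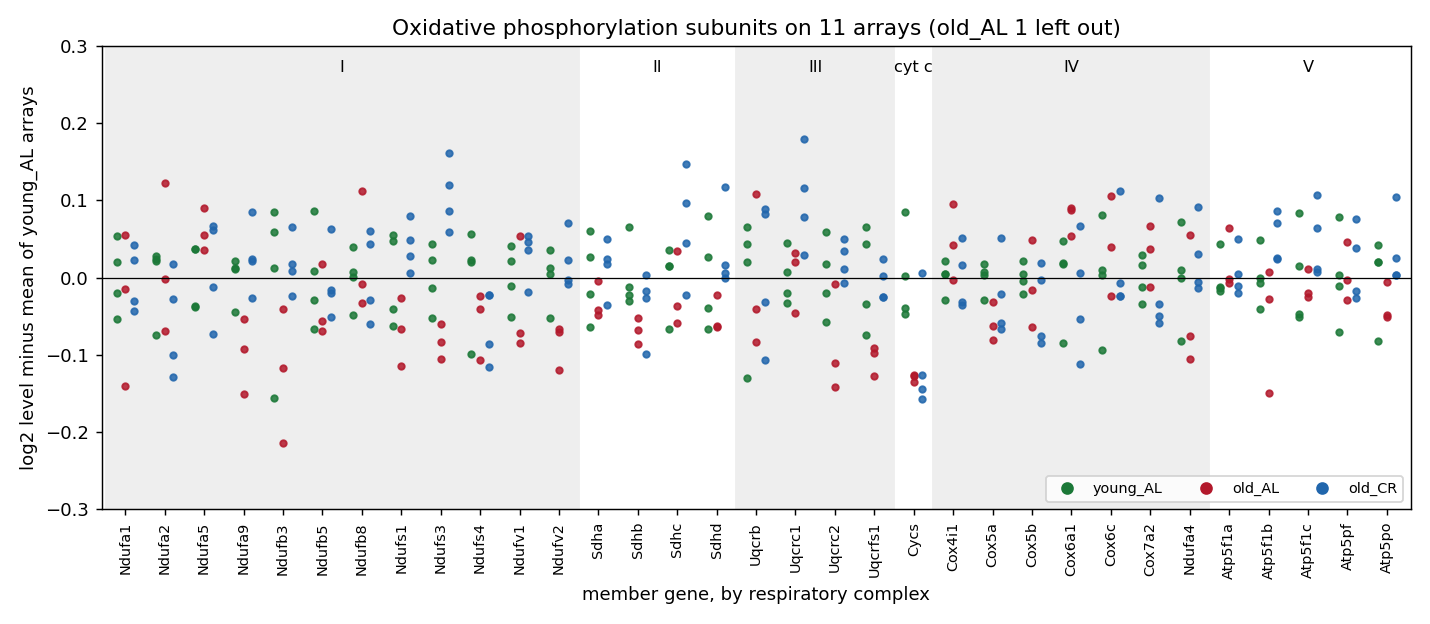
Each point is the level of a member gene on 1 of 11 arrays, as log2 difference from the mean of the young_AL arrays, with genes ordered by complex and old_AL 1 left out. All points lie between -0.21 for Ndufb3 on old_AL 3 and 0.18 for Uqcrc1 on old_CR 1, and the 3 groups intermingle for most genes.

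Members also varied little within a group. Their median within-group SD was 0.050 on 11 arrays, from 0.033 for Atp5f1a to 0.094 for Uqcrb, against 0.10 for all genes tested. Ranked by young_AL level, 8 members lie in decile 9 and 25 in decile 10, and the 4170 genes of those bright deciles had a median SD of 0.059. Among those bright genes the median differences were -0.0085 with age and 3e-04 with diet, whereas in decile 1, the dimmest, they were 0.41 and -0.47. Deciles 9 and 10 had opposite signs, with -0.029 and 0.025 in decile 9 and 0.0185 and -0.0227 in decile 10. The median over all genes was 0.035 with age and -0.056 with diet.

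The order of the group means is a further description of the 33 genes. Mean levels were lowest in old_AL for 21 members, an order seen in 25.5% of all genes and in 39.2% of the bright genes, and highest in old_AL for 8, against 48.2% of all genes. In 15 members old_AL was lowest and old_CR highest, an order found in 12.8% of all genes. For this order, and for old_AL highest, no share of the bright genes is given here. All 33 members are bright genes, and the share with old_AL lowest was larger among bright genes than among all genes. The shares of 12.8% and 48.2% of all genes are therefore not a background of like brightness. The age and diet comparisons share the 3 old_AL arrays, so a low old_AL mean enters both.

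Among the sequence features that the list did not use, the letters of sites known from promoters of respiratory genes were looked for in the members' promoters. RefSeq promoters of build GRCr8, 250 bases before to 50 after each start, were matched by symbol for 30 of the 34 listed genes, all but Cox6c, Uqcrb, Cyc1 and Cox6a1. Both strands were searched for 7 motifs. The letters CCGGAAG, a core bound by ETS factors such as GABP (nuclear respiratory factor 2), were in 11 of the 30 promoters, in 8.75% of 33469 rat promoters and in 15.35% of the 10572 promoters of genes tested. The motif of nuclear respiratory factor 1 (NRF1), shown in capitals in the windows that follow, was in 5 of 30, against 4.25% and 8.41%. The motif of YY1, shown there too, was in 6 of 30, against 0.98% and 2.01%. GGGCGG, the Sp1 box, was in 12 of 30, against 33.06% and 56.69%, CCAAT was in 8 of 30, against 37.49% and 37.46%, and TATAAA was in 1 of 30, against 14.22% and 8.68%. The palindrome of the cyclic AMP response element was in 1 of 30, against 1.83% and 2.93%. No match of a motif overlapped a match of another motif in these promoters. At least 1 of the ETS, NRF1 and YY1 motifs was present in 19 members and none in 11, and the median GC content was 58.3% against 59.7% for promoters of genes tested.

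Windows of members of complexes I, II, III and V are shown 5′ to 3′ on the strand of the gene, all before the start of transcription, with the motif in capitals. They let a reader compare an NRF1 site of complexes I, II and V with an ETS site of complexes I, II and III.
Ndufa5, NRF1 motif, chr4:53971243-53971282, minus strand: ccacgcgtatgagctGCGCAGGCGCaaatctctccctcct
Sdha, NRF1 motif, chr1:30764449-30764488, plus strand: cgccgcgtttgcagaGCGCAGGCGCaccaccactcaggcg
Atp5po, NRF1 motif, chr11:44657518-44657557, minus strand: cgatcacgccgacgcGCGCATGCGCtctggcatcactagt
Ndufs1, ETS motif, chr9:72073783-72073819, minus strand: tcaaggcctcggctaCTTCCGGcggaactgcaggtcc
Sdhb, ETS motif, chr5:158547811-158547847, plus strand: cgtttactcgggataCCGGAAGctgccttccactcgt
Uqcrc2, ETS motif, chr1:184599108-184599144, plus strand: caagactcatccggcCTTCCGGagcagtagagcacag
Atp5pf, YY1 motif, chr11:37375188-37375227, minus strand: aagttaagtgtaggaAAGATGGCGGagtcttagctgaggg
The promoter of Ndufs3, the member with the smallest p in the diet comparison, held none of these 3 motifs, but an Sp1 box, shown next, and a CCAAT match.
Ndufs3, Sp1 motif, chr3:97339804-97339839, minus strand: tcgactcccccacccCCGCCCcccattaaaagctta
A match of letters is not a measured binding site, and binding was not measured here.

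In complex I, the NADH dehydrogenase, the 12 genes had a median difference of -0.047 with age and 0.047 with diet, with 9 of 12 negative with age and 8 of 12 positive with diet. Ndufs3, a core subunit of the module that hands electrons to ubiquinone, had levels of 2.36, 2.44, 2.40 and 2.46 on the young_AL arrays. On old_AL 2, 3 and 4 it stood at 2.35, 2.31 and 2.33, and on the old_CR arrays at 2.50, 2.47, 2.57 and 2.53. All 4 old_CR arrays were above all young_AL arrays, which were above the 3 old_AL arrays, so no groups overlapped.

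The Ndufs3 difference with diet was 0.19 ± 0.037 (SE, n = 4 and 3), which is 14.1% higher in old_CR with a 95% interval of 0.11 to 0.27 (limma adjusted p = 0.0509). It was the smallest adjusted p of any member and just missed the threshold of 0.05. With age the difference was -0.083 ± 0.037 (limma adjusted p = 0.220), and old_CR against young_AL gave 0.11 ± 0.035 (limma adjusted p = 0.141). On old_AL 1 the level of Ndufs3 was 3.55, above every other array, and on 12 arrays the diet difference was -0.11 ± 0.24 (limma adjusted p = 0.801). With array weights on 12 arrays the difference was 0.19 ± 0.042 (limma adjusted p = 0.0392), and with quantile normalization of 12 arrays it was 0.11 ± 0.084 (limma adjusted p = 0.531), so the sign turned where old_AL 1 entered at full weight under the 75th percentile scaling. The unscaled intensities of Ndufs3 ran from 13019 to 17975 on the other 11 arrays and reached 82618 on old_AL 1.

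Ndufs1, the largest iron-sulfur subunit, stood at 2.42, 2.51, 2.40 and 2.52 in young_AL, at 2.40, 2.35 and 2.44 in old_AL and at 2.51, 2.47, 2.54 and 2.49 in old_CR. Its 3 old_AL arrays lay below the 4 old_CR arrays and overlapped young_AL, and the diet difference was 0.11 ± 0.042 (limma adjusted p = 0.145). Ndufv2, another iron-sulfur subunit of the NADH-oxidising module, was lower with age by 0.085 ± 0.036 and higher with diet by 0.11 ± 0.036 (limma adjusted p = 0.194 and 0.116), without overlap in either. Ndufv1, which binds NADH, differed by -0.034 ± 0.043 with age and 0.063 ± 0.043 with diet. These 4 core subunits had a median of -0.076 with age and 0.11 with diet, all 4 negative and all 4 positive, while the other 8 genes had medians of -0.035 and 0.013. This division was made after the values were seen.

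Of the accessory subunits, Ndufa9 was lower with age by 0.099 ± 0.039 and higher with diet by 0.12 ± 0.039 (limma adjusted p = 0.173 and 0.0990), again without overlap. Ndufb3, in the membrane arm, differed by -0.12 ± 0.063 with age and 0.14 ± 0.063 with diet (limma adjusted p = 0.273 and 0.194), and its groups did not overlap with diet. Ndufa1, also of the membrane arm, stood at 4.56, 4.67, 4.63 and 4.59 in young_AL, at 4.60, 4.47 and 4.67 in old_AL and at 4.65, 4.57, 4.63 and 4.58 in old_CR. Its groups overlapped throughout, and its differences were -0.033 ± 0.051 with age and 0.031 ± 0.051 with diet.

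Ndufs4, an accessory subunit whose loss is known to cause complex I deficiency, had the largest p of the members in the diet comparison. It stood at 1.77, 1.89, 1.89 and 1.92 in young_AL, at 1.82, 1.76 and 1.84 in old_AL, and at 1.78, 1.75, 1.84 and 1.84 in old_CR. The old_AL and old_CR arrays covered nearly the same range, with a difference of -0.0045 ± 0.046, a 95% interval of -0.11 to 0.10. A second probe of Ndufs4 gave 0.11 ± 0.045 for the same comparison (limma adjusted p = 0.177 over probes). Ndufa2, Ndufa5, Ndufb5 and Ndufb8 overlapped in all 3 comparisons, with diet differences of -0.077, -0.050, 0.030 and -0.020.

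**Figure D2:**
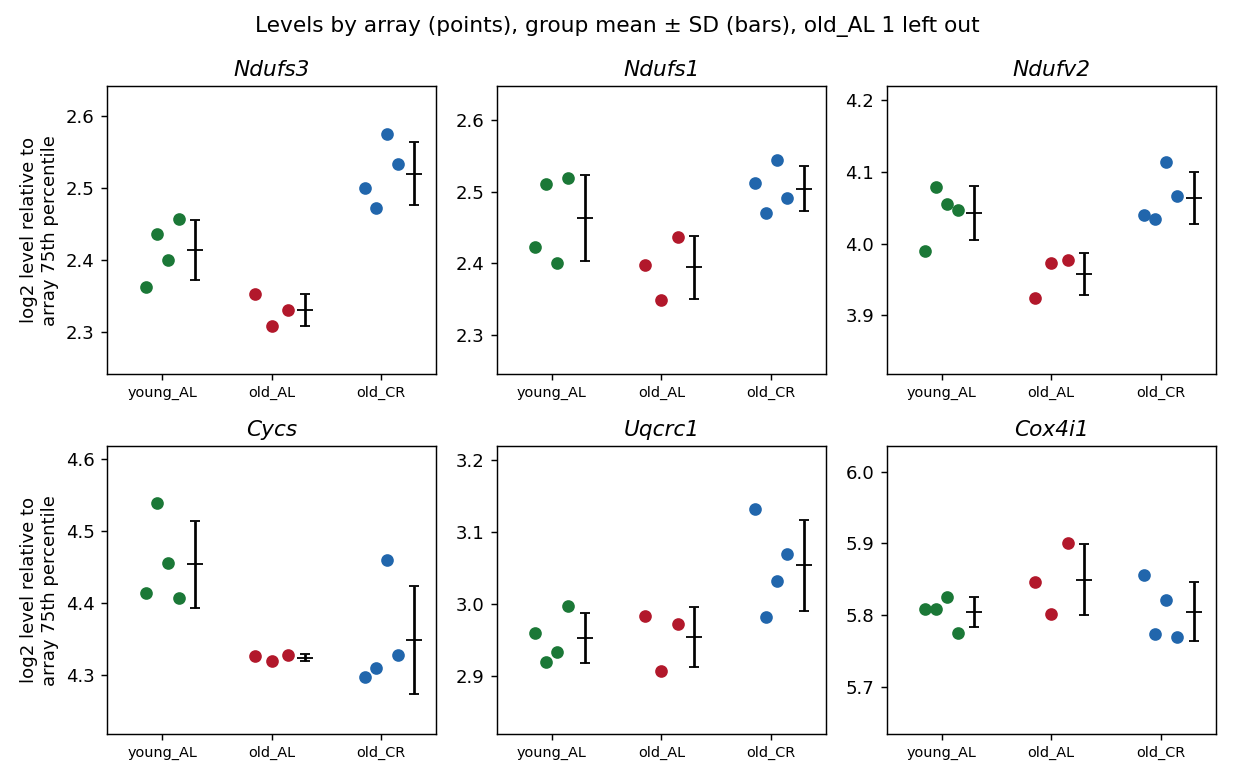
Levels of 6 members on each of 11 arrays (points) with the mean and SD of each group (bars), in log2 relative to the array's 75th percentile, on axes of equal span. Ndufs3 shows 3 separate groups with old_AL lowest and old_CR highest, Cycs is higher on the young_AL arrays than on old_AL, and Cox4i1 overlaps throughout.

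Complex II, succinate dehydrogenase, shares its reaction with the citrate cycle. Its 4 genes had a median of -0.041 with age and 0.065 with diet, all 4 negative and all 4 positive. Sdha, the flavoprotein that oxidises succinate, stood at 2.65, 2.73, 2.61 and 2.70 in young_AL, at 2.63, 2.67 and 2.63 in old_AL and at 2.69, 2.64, 2.72 and 2.70 in old_CR. Those arrays overlapped in every comparison, with -0.032 ± 0.039 for age and 0.045 ± 0.039 for diet. Sdhb, the iron-sulfur subunit, did not overlap with age (-0.068 ± 0.038, limma adjusted p = 0.304). The membrane anchors Sdhc and Sdhd were 0.086 ± 0.048 and 0.085 ± 0.046 higher with diet (limma adjusted p = 0.272 and 0.261), and only Sdhd was without overlap.

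Complex III, the cytochrome bc1 complex, had the highest median difference with diet among the complexes with more than 1 gene, 0.099 over 4 genes, all positive, and -0.046 with age. Uqcrc1, a core protein, stood at 2.959, 2.920, 2.933 and 2.998 in young_AL, at 2.98, 2.91 and 2.97 in old_AL and at 3.13, 2.98, 3.03 and 3.07 in old_CR. The old_CR arrays were highest apart from old_CR 2, which lay among the others. Uqcrc1 had the largest p of any member with age, at 0.0017 ± 0.043 (95% interval -0.094 to 0.098), and differed by 0.099 ± 0.043 with diet and 0.10 ± 0.040 for old_CR against young_AL (limma adjusted p = 0.179 and 0.214).

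The other core protein, Uqcrc2, differed by 0.11 ± 0.043 with diet (limma adjusted p = 0.153), without overlap. Uqcrfs1, the Rieske iron-sulfur protein, was lower with age by 0.11 ± 0.040 and higher with diet by 0.099 ± 0.040 (limma adjusted p = 0.163 and 0.161), without overlap in either. Uqcrb, which helps bind ubiquinone, has 2 probes that did not give the same picture. The probe used for the gene, a single spot, differed by -0.0053 ± 0.071 with age, and the other, with 10 spots, by -0.20 ± 0.046 (limma adjusted p = 0.0531 over probes). For old_CR against young_AL they gave 0.0082 ± 0.066 and -0.17 ± 0.043 (limma adjusted p = 0.968 and 0.0770 over probes).

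Cytochrome c, Cycs, carries electrons between complexes III and IV and is also known for its role in apoptosis. It stood at 4.41, 4.54, 4.46 and 4.41 in young_AL, at 4.33, 4.32 and 4.33 in old_AL and at 4.30, 4.31, 4.46 and 4.33 in old_CR. All old_AL arrays and 3 of the 4 old_CR arrays lay below all young_AL arrays, while old_CR 3 lay within them. Cycs had the smallest p of the members with age, -0.13 ± 0.049, which is -8.60% (limma adjusted p = 0.160), and differed by -0.11 ± 0.045 for old_CR against young_AL (limma adjusted p = 0.255). With diet it differed by 0.024 ± 0.049, and its second probe gave -0.11 ± 0.050 with age.

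Complex IV, cytochrome c oxidase, had medians of opposite sign to those of complexes I, II and III on 11 arrays, 0.030 with age and -0.026 with diet over 7 genes, with 4 positive with age and 2 positive with diet. Decile 10 of brightness, in which the complex IV genes lie, had medians over all its genes of 0.0185 with age and -0.0227 with diet. Whether the complexes differ from each other, or by brightness, was not tested. Cox4i1, the common isoform of subunit 4, stood at 5.81, 5.81, 5.83 and 5.78 in young_AL, at 5.85, 5.80 and 5.90 in old_AL and at 5.86, 5.77, 5.82 and 5.77 in old_CR. Its groups overlapped, with 0.045 ± 0.037 for age, -0.045 ± 0.037 for diet and 4e-04 ± 0.034 for old_CR against young_AL, the largest p of any member there (95% interval -0.076 to 0.077).

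Cox6a1 was the only member higher on all 3 old_AL arrays than on all young_AL arrays, by 0.078 ± 0.049 (limma adjusted p = 0.369). It also had the most negative diet difference, -0.10 ± 0.049 (limma adjusted p = 0.223). Cox5a did not overlap with age, at -0.059 ± 0.037 (limma adjusted p = 0.359). Cox5b, Cox6c, Cox7a2 and Ndufa4, which is counted with complex IV today despite its name, overlapped in all 3 comparisons and had differences between -0.042 and 0.068.

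Complex V, the ATP synthase, had medians of -0.011 with age and 0.059 with diet over 5 genes. Atp5f1b, the catalytic beta subunit, stood at 2.59, 2.55, 2.59 and 2.64 in young_AL, at 2.60, 2.57 and 2.45 in old_AL and at 2.62, 2.62, 2.68 and 2.67 in old_CR. All old_CR arrays were above the old_AL arrays, of which old_AL 4 was the lowest, and the diet difference was 0.11 ± 0.044 (limma adjusted p = 0.163). Atp5po, the stalk protein that holds the catalytic head, also did not overlap with diet, at 0.069 ± 0.042 (limma adjusted p = 0.309). Atp5f1a, Atp5f1c and Atp5pf, the alpha, gamma and coupling factor 6 subunits, overlapped in all comparisons, with diet differences of -0.013, 0.059 and 0.013.

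**Figure D3:**
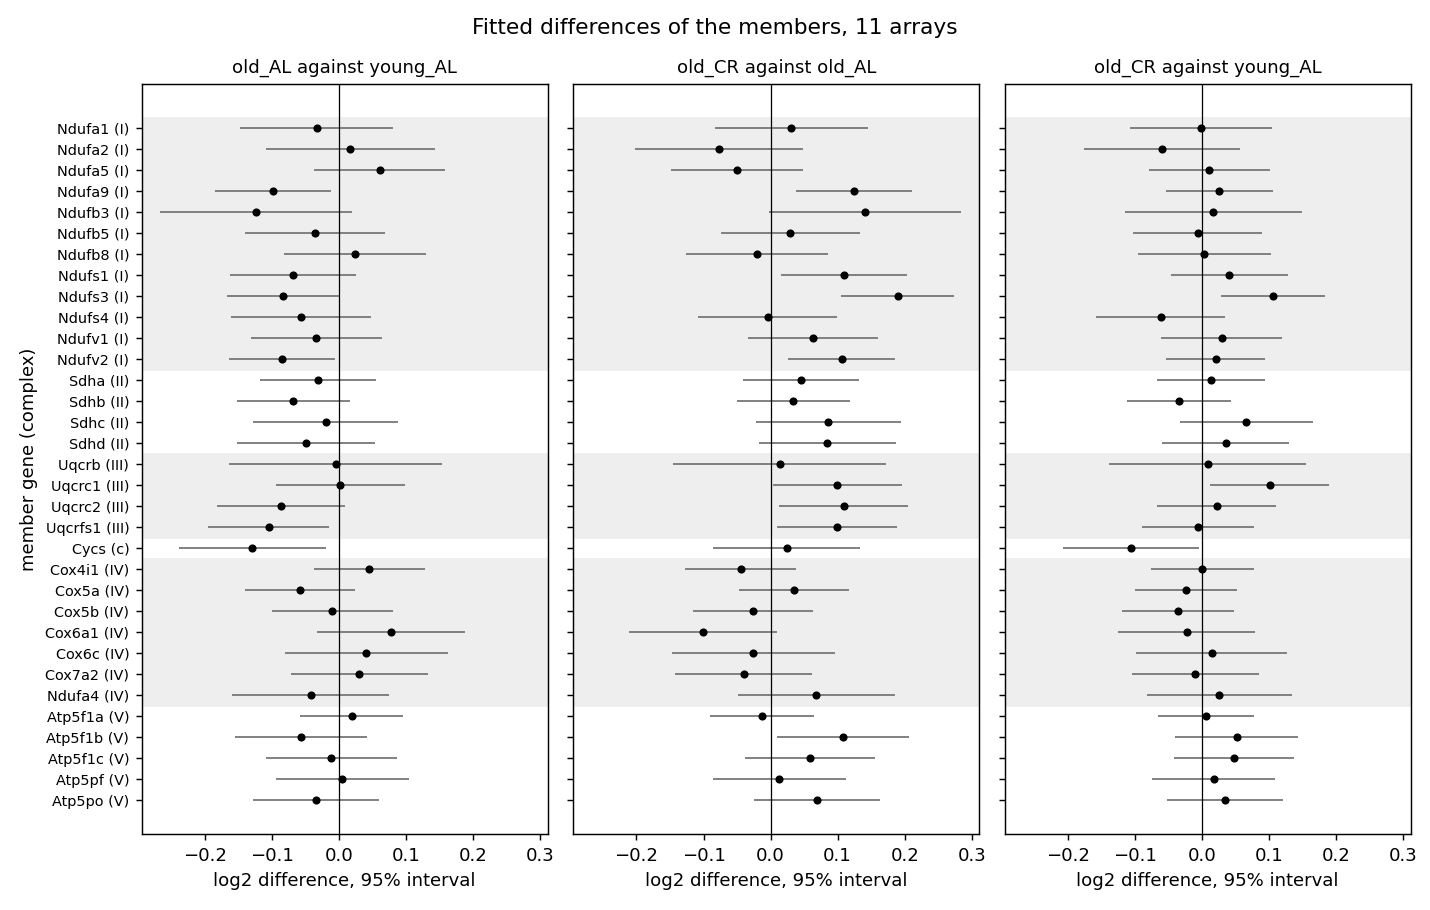
Fitted log2 differences of the 33 members with their 95% intervals on 11 arrays, one panel per comparison, genes ordered by complex. With age 4 intervals lie off 0, with diet 8, all on the positive side and with Ndufs3 farthest, and for old_CR against young_AL 3.

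Counting arrays that do not overlap, by the probe used for each gene, 8 of 33 members separated old_AL from young_AL on 11 arrays, where 19.5% of all genes did. Of these, 7 were lower in old_AL, Ndufs3, Ndufa9, Ndufv2, Sdhb, Uqcrfs1, Cycs and Cox5a, where 7.56% of all genes and 11.8% of the bright genes were lower without overlap. With diet 10 of 33 did not overlap, where 23.4% of all genes did, and all 10 were higher in old_CR, where 8.04% of all genes and 14.7% of the bright genes were higher. By the probes used, only Ndufs3 separated old_CR from young_AL, where 15.9% of all genes did. The second probe of Uqcrb, not counted, lay lower without overlap in old_CR and in old_AL than in young_AL. The second probe of Ndufs4 lay higher without overlap in old_CR than in old_AL. The first 2 counts rest on the 3 old_AL arrays, and with old_AL 1 included 0 members were without overlap in either comparison, where 8.78% and 8.26% of all genes were, while Ndufs3 and 15.8% of all genes stayed apart between old_CR and young_AL.

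On several arrays most members shifted to the same side. Relative to the young_AL mean, 31 of 33 members were above it on old_CR 3 and 28 on young_AL 2. There were 3 above it on old_AL 3, 5 on young_AL 1, 6 on old_CR 2 and 7 on old_AL 2. On old_AL 4, where the median member stood at 0.018, there were 17. The count was 23 on old_CR 1, 15 on old_CR 4, 21 on young_AL 3 and 22 on young_AL 4. The median member stood between -0.052 and 0.066 on these arrays. The bright genes as a whole moved between -0.032 and 0.025. Skeletal muscle markers, 8 of 10 tested, summed to 138% of the 75th percentile on young_AL 2 against 47.1% to 53.4% on the other young_AL arrays and 47.0% to 71.5% on the old arrays of this fit, and their part in the high member levels there was not tested.

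Some other cell type markers moved with the groups, while others overlapped between them. Relative to the young_AL mean, the young_AL arrays themselves ranged from -0.33 to 0.20 for macrophage, -0.12 to 0.12 for Schwann cell and -0.026 to 0.034 for sensory neuron markers. The ranges there were -0.25 to 0.26 for T cell, -0.11 to 0.059 for satellite glia and -0.54 to 0.58 for neutrophil markers. For adipocyte, erythroid, fibroblast and endothelial markers they were -0.32 to 0.23, -0.41 to 0.59, -0.15 to 0.25 and -0.053 to 0.068. The 10 macrophage markers averaged 0.64 to 1.11 above the young_AL mean on the old_AL arrays and 0.32 to 0.77 on the old_CR arrays. The 8 myelinating Schwann cell markers averaged -0.39 to -0.077 and -0.50 to -0.12, and the 9 sensory neuron markers -0.12 to -0.079 and -0.11 to -0.035. The 6 T cell markers averaged 0.95 to 1.52 and 0.35 to 1.16, and the 6 satellite glia markers -0.10 to 0.14 and -0.22 to -0.17. For neutrophil markers, 4 tested, the ranges were 0.97 to 2.37 and 1.10 to 1.71, for adipocyte markers, 4 tested, 0.429 to 1.275 and 0.758 to 1.496, and for erythroid markers, 4 tested, 0.39 to 1.94 and 0.014 to 0.57. The 6 fibroblast markers averaged -0.30 to 0.17 and -0.59 to -0.082, and the 5 endothelial markers 0.071 to 0.25 and -0.18 to 0.010. In ganglion RNA fewer cells of a type and less RNA per cell cannot be told apart, and the part of these shifts in the member differences was not tested.

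On old_AL 1 the members were displaced far beyond any difference between the groups. Of the 33, 30 were higher there than on every other array, by a median of 1.04 against the young_AL mean and up to 3.15 for Sdhc, a membrane anchor of complex II. Ndufa2 was 1.30 lower and Cox6a1 was also lowest there. All genes tested had a median of -0.51 on that array, deciles 9 and 10 of brightness 0.29 and 0.73, and decile 1 -0.93. By complex the mean displacement was 0.76 for complex I, 1.38 for II, 0.73 for III, 0.72 for IV and 1.41 for V. Replicate spots of the 8 members with 10 spots had a median SD of 0.11 there and 0.037 on the other arrays. With this array in the fit the median standard error of the members was 0.23 in the age and diet comparisons, where it was 0.044 without it.

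**Figure D4:**
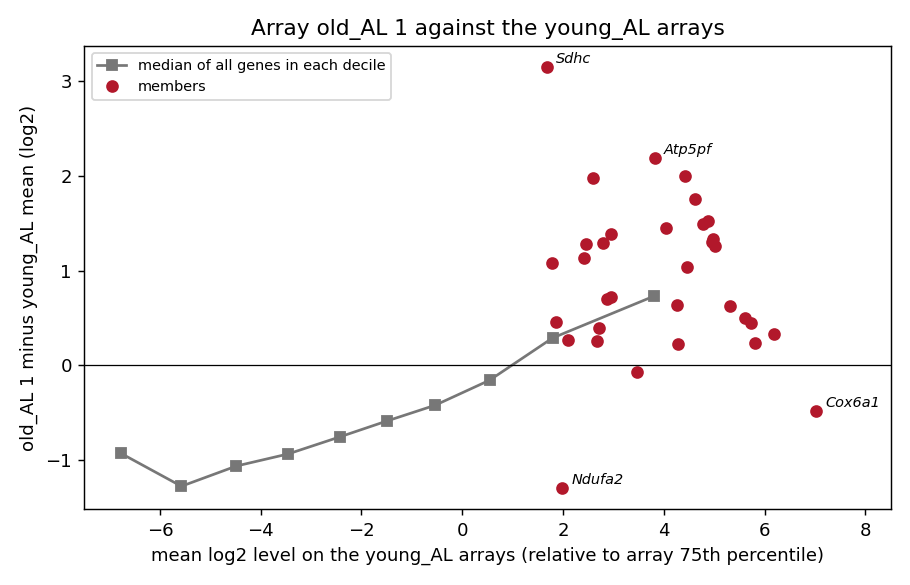
Difference of old_AL 1 from the young_AL mean (log2) against the young_AL level, for the 33 members (red points) and for the median of all genes in each decile of brightness (grey squares). Bright genes lie above 0 and dim genes below, and members spread from -1.30 for Ndufa2 to 3.15 for Sdhc.

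Other genes of mitochondrial energy supply were followed from lists of the same kind. Of 24 other nuclear subunits of complex I, 19 were tested and none passed in any comparison, with medians of -0.016 with age and 0.039 with diet. On 12 arrays these medians were 0.13 and -0.11, of opposite sign. Ndufb6, of the membrane arm, had the smallest p with diet, at 0.12 ± 0.035 (limma adjusted p = 0.0947), and Ndufv3 with age, at -0.13 ± 0.038 (limma adjusted p = 0.0923). Of 18 other subunits of complexes III, IV and V, 16 were tested and none passed, with medians of -0.018, -0.031 and -0.068 in the order age, diet and old_CR against young_AL. In the same order the medians on 12 arrays were 0.20, -0.23 and -0.068. In the last comparison Uqcrq, a small subunit of complex III, was lower by 0.19 ± 0.042 (limma adjusted p = 0.0518). The 13 subunits encoded in mitochondrial DNA were not analysed here.

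Among 39 of 48 assembly factors tested, Cox19, a factor for copper delivery to complex IV, fell with age by 0.18 ± 0.038 (limma adjusted p = 0.0449). It was the only gene of the 39 to pass in any comparison, where 2.99% of all genes passed with age. On 12 arrays it was 0.11 higher (limma adjusted p = 0.771), and with single arrays left out it passed in 1 of 11 fits, without old_AL 4, with adjusted p from 0.0316 to 0.113. Ndufaf3, which assembles complex I together with other factors, had a diet difference of 0.24 ± 0.051 (limma adjusted p = 0.0582). The medians over the list were -0.043 with age and 0.034 with diet, and on 12 arrays -0.079 and 0.087.

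The 19 genes of pyruvate oxidation and the citrate cycle supply NADH and succinate to the chain. On 11 arrays 18 of them were lower in old_AL than in young_AL, with a median of -0.048. With diet 16 were higher, with a median of 0.059. Both medians had the opposite sign on 12 arrays, at 0.13 with age and -0.12 with diet. Of all genes, 59.4% were higher with age and 36.7% with diet, and of the bright genes 46.6% and 50.2%. Idh2, the mitochondrial NADP-dependent isocitrate dehydrogenase, fell with age by 0.21 ± 0.047 (limma adjusted p = 0.0498). It was the only gene of the 19 to pass there, where 2.99% of all genes passed. With diet none passed, with Pdhb at 0.18 ± 0.037 and Mdh2 at 0.18 ± 0.038 (limma adjusted p = 0.0553 and 0.0585). Leaving out single arrays, Idh2 passed in 1 of 11 fits, without young_AL 1, and on 12 arrays it did not pass (limma adjusted p = 0.577).

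Regulators of mitochondrial biogenesis, 20 of 21 tested, and carriers, import and membrane dynamics genes, all 22 tested, had no gene that passed, with diet medians of 0.0050 and 0.021. On 12 arrays these diet medians were 0.13 and -0.063. Ppargc1b, a coactivator of respiratory genes, differed by -0.19 ± 0.055 with age and 0.26 ± 0.055 with diet (limma adjusted p = 0.0853 and 0.0553). None of the 16 glycolysis genes passed, and 13 were higher with age, with a median of 0.059, where 59.4% of all genes and 46.6% of the bright genes were higher. The glycolysis median with age was 0.24 on 12 arrays. None of the 4 uncoupling proteins tested or of the 4 tissue-restricted subunit isoforms tested passed. Among the isoforms, Cox8b, the isoform of subunit 8 known from heart and skeletal muscle, differed by 0.52 ± 0.14 with age (limma adjusted p = 0.0796).

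**Figure D5:**
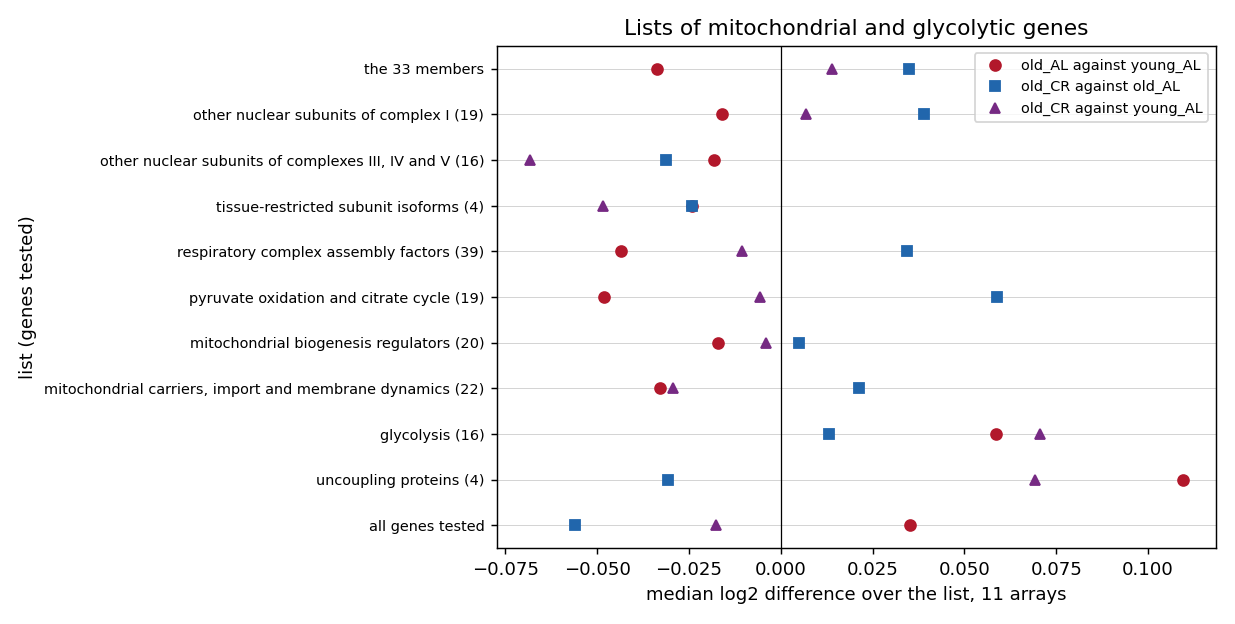
Median log2 difference on 11 arrays over the members, over each list of mitochondrial and glycolytic genes and over all genes tested, for the 3 comparisons. The members lie at -0.034 with age and 0.035 with diet, the citrate cycle list at -0.048 and 0.059, and all genes tested at 0.035 and -0.056.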

How the data were processed

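The authors deposited linear spot intensities, background-subtracted by Agilent Feature Extraction 10.7, per the file headers and the submitters' processing notes. Symbols came from RefSeq's GRCr8 gene table, by accession, for 17998 of 30367 probes, and the table served for names and promoter sequences. Log2 intensity minus the array's 75th percentile was analysed. The 4259 control spots were left out, flagged outlier spots were set to missing, spots of a probe were averaged, and probes well above background in at least a share of 0.5 of spots on 4 arrays were kept. A gene was its brightest probe.

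Groups were compared with limma 3.58.1 in R 4.3.3 with a mean per group and Benjamini-Hochberg adjustment over all genes at 0.05. Arrays have no counts, so their number limits the precision. The members, the lists and leaving out old_AL 1 were chosen with earlier results of these data known. Every member is named. Values by array were given for a chosen gene or pair per complex and for the smallest and largest p of each comparison, and list genes were named where they passed or had 1 of the 2 smallest p. Alternatives were 16 other settings and 11 leave-outs. The fit was tested on simulated data. For the citrate cycle list, 1 result in the comparison of old_CR with young_AL is not reported here.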

Additional observations from a re-analysis of the deposited data

Results flagged for a closer look

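In groups of 4 arrays, the gap of the highest or lowest array to its neighbour was set against the group's range, and 39 of 117 tests exceeded Dixon's 95% critical value. Chance flags about 1 in 20 groups.

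The array old_AL 1 gave 32 of the 39. In complex I the ratios were 0.897 for Ndufa1, 0.865 for Ndufa2, 0.958 for Ndufa5, 0.921 for Ndufa9, 0.885 for Ndufb3, 0.937 for Ndufs1, 0.964 for Ndufs3, 0.855 for Ndufs4 and 0.966 for Ndufv2. In complex II they were 0.856 for Sdha, 0.957 for Sdhb, 0.971 for Sdhc and 0.972 for Sdhd, and in complex III 0.900 for Uqcrc1, 0.932 for Uqcrfs1 and 0.882 for Uqcrb. Cycs had 0.992. In complex IV they were 0.977 for Cox5a, 0.835 for Cox5b, 0.936 for Cox6a1, 0.879 for Cox7a2 and 0.900 for Ndufa4, and in complex V 0.926 for Atp5f1b, 0.972 for Atp5f1c, 0.965 for Atp5po and 0.966 for Atp5pf. The means over all members and over complexes I, II, III, IV and V had 0.935, 0.882, 0.986, 0.904, 0.891 and 0.996. On this array, by the probe used for each gene, Ndufa2 and Cox6a1 were low and the others named were high.

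The other 7 lay on 4 arrays. Ndufa2 and Ndufa9 were low on young_AL 1 (0.933 and 0.841), Atp5f1a was high on young_AL 2 (0.931), and Sdhd, Cox6c and Cox7a2 were high on old_CR 3 (0.854, 0.872 and 0.845). Ndufb5 was high on old_AL 4 (0.858), where old_AL 1 lay with the other arrays.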

How the results depend on the processing

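The member median with age was 0.18 on all 12 arrays, -0.087 on 12 arrays with quantile normalization and -0.19 with median centring, and with diet it was -0.18, 0.11 and 0.21, and 0.094 with quantile normalization on 11 arrays. Median centring moved the median of all genes by -0.16 with age and 0.17 with diet. Counts of members that passed with age were 2 with quantile normalization (Ndufv2 and Cycs) and 13 with median centring, all lower, where 5.12% and 16.3% of all genes passed. With diet they were 14 with median centring, 4 with normexp and 2 with quantile normalization, where 15.8%, 22.5% and 1.89% of all genes passed, and 1, Ndufs3, with array weights on 11 or 12 arrays, the intensity trend, probes well above background on every array, or the percentile over probes, which was chosen after seeing the data. Ndufs3 thus passed with diet in 9 of 27 alternatives. Leaving out single arrays gave medians of -0.051 to -0.015 with age, 0.023 to 0.056 with diet and -0.0049 to 0.029 for old_CR against young_AL. In those fits 0, 0 to 1 and 0 members passed. The 1 was Ndufs3 without old_AL 2 (limma adjusted p = 0.0450), where 4.48% of all genes passed. Cox19 reversed on 12 arrays, at 0.11.

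Deviations of same-numbered arrays had correlations of -0.088 to 0.086 over 10 pairs, against -0.13 to 0.10 over 30 pairs with different numbers. These values show no sign of pairing by the replicate number of the source names, which is used throughout. The sample titles give most samples another number, and pairing by the title numbers was not tested. The correlations cannot exclude that samples were paired or handled together in another way. With the replicate number as a block the member medians were -0.038, 0.043 and 0.014 and 0 members passed, with 20, 1 and 21 of all genes passing. The share of higher calls among all genes was 61.9% with age and 24.3% with diet, 22.9% and 69.5% with quantile normalization, 9.43% and 92.2% with median centring, and 86.3% and 10.6% with normexp. The number of all genes that passed with diet ran from 1 without old_CR 4 to 931 without old_AL 2.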
